A study of Homo sapiens with 12 samples.

Results

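The same knockdown was read in a pair of human esophageal squamous cell carcinoma lines, and the question here is where their transcriptomes answered it differently. TE10 and Kyse410 cells had been stably infected to express an shRNA against UHRF1 or a scramble control, and polyadenylated RNA was sequenced. All 12 of the 12 libraries of the series were used: 3 of TE10 with UHRF1 shRNA, 3 of TE10 with scramble, 3 of Kyse410 with UHRF1 shRNA and 3 of Kyse410 with scramble. The quantity tested for each gene was the log2 change with shRNA in Kyse410 minus the log2 change with shRNA in TE10, as an interaction in 1 fit. A positive difference therefore means a response that was higher in Kyse410, whether the gene rose more there, fell less there, or rose there and fell in TE10.

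UHRF1 is a nuclear protein with a domain that binds hemimethylated DNA and a RING domain with ubiquitin ligase activity, and it brings the maintenance methyltransferase DNMT1 to newly copied DNA. It also reads methylated histone H3 lysine 9. Its loss is known to lower DNA methylation and, depending on the cell, to touch the cell cycle, silenced repeats and inflammatory genes. Each line stands for 1 tumour, and the labels do not say how many hairpins were used, so an effect of the hairpin itself cannot be told apart from an effect of losing UHRF1. Whether the libraries within a group are separate cultures is not given in the labels either, and the p-values reflect only their spread, which could be technical.

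Levels are given as CPM, the reads of a gene relative to the library total scaled by TMM factors, with the SD over 3 libraries where a ± follows. Reads assigned to genes ran from 7857662 to 12005229 per library, and calls were made with edgeR's quasi-likelihood test where the p adjusted over 16060 genes was under 0.05. The simple epithelial keratin genes KRT8, KRT18 and KRT19 were present in every library. Of the squamous markers listed, KRT5, KRT14, KRT6A, KRT17, TP63 and DSG3 had reads in every library. SOX2 and PKP1 each had none in 3 libraries and stayed below 1 CPM in every group. Before TMM scaling, KRT5 was at 1.17 and 1.43 CPM in Kyse410 scramble and shRNA, and KRT14 at 4.51 and 1.36 CPM. Of the 14 blood-cell markers listed, 0 passed the filter on low counts, and the fibroblast genes COL3A1, DCN and LUM had at most 2 reads in any library. COL1A1, on the same list, was present in every library, with up to 1786 reads. Of the 15 fibroblast, endothelium and muscle markers 5 passed the filter, of which 4 had a higher and 0 a lower response in Kyse410 (median difference 1.34, or 0.59 with a floor of 10 CPM), and their part in the results was not tested. Mitochondrially encoded protein transcripts took 5.321% to 5.42% of gene reads in TE10 scramble, 4.522% to 5.181% in TE10 shRNA, 1.596% to 1.722% in Kyse410 scramble and 2.793% to 2.856% in Kyse410 shRNA. In these bulk libraries fewer cells of a kind and less RNA per cell cannot be told apart.

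UHRF1 itself fell in both lines. Its level was 173, 179 and 184 CPM in TE10 scramble and 82.1, 86.8 and 88.9 CPM in TE10 shRNA. In Kyse410 it was 101, 101 and 95.1 CPM with scramble and 42.1, 43.5 and 41.9 CPM with shRNA. The groups did not overlap in either line, and the log2 changes were -1.06 ± 0.05 (SE) in TE10 and -1.22 ± 0.06 in Kyse410. The difference between them was -0.16 ± 0.08 with an adjusted p of 0.093, so a difference in the depth of the knockdown was not called, although its unadjusted 95% interval ran from -0.32 to -0.0066, and without TE10 shRNA replicate 1 the adjusted p was 0.048. DNMT1, the partner enzyme, rose in both lines, by 0.19 in TE10 and 0.25 in Kyse410 on the log2 scale, with no called difference (adjusted p = 0.46).

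Beside this fall of UHRF1, the responses differed at 6240 of 16060 genes, which is 38.9%. The difference was positive at 3048 genes (19.0%) and negative at 3192 (19.9%), and its median size among called genes was 0.55 on the log2 scale. Differences of at least 2-fold were far less even: 871 were higher in Kyse410 and 364 lower. Past 4-fold, 195 were higher and 50 lower. The first principal component of the 10394 genes at 10 CPM or more held 80.8% of the variance and separated the lines. The second, with 10.6%, moved the same way with shRNA in both lines, and the third, with 5.2%, moved with shRNA in opposite directions in TE10 and Kyse410.

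**Figure D1:**
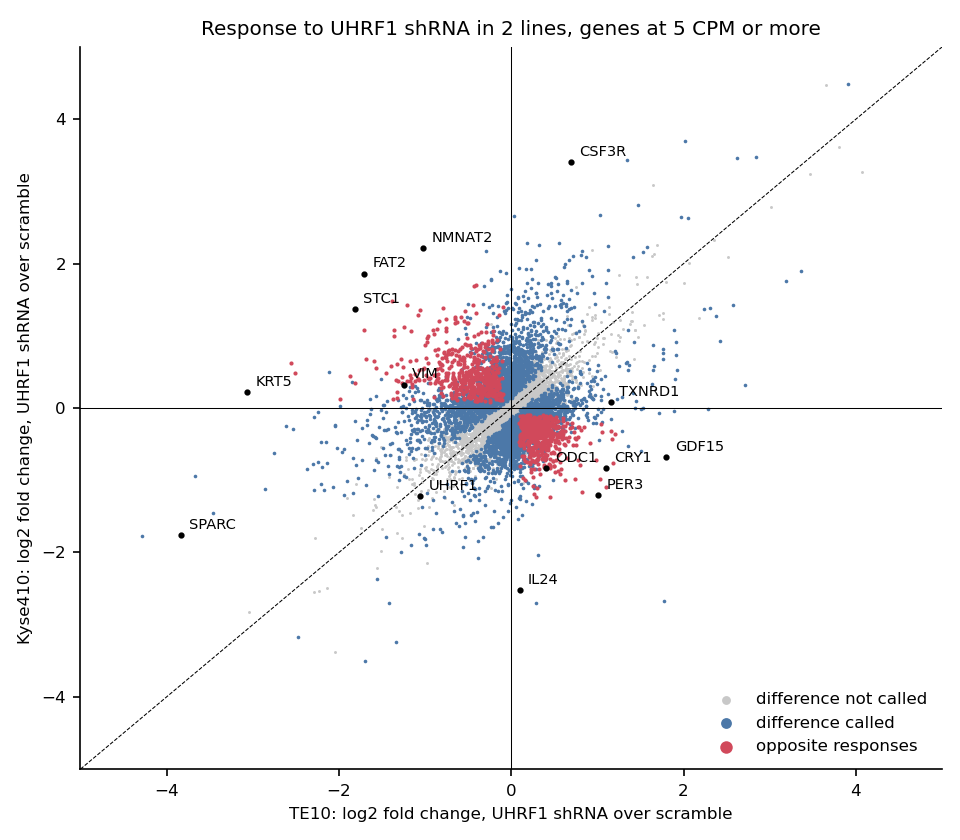
Log2 fold change with UHRF1 shRNA over scramble in TE10 (horizontal axis) and in Kyse410 (vertical axis) for genes averaging 5 CPM or more, each point 1 gene, with the dashed line marking equal responses. Genes with opposite called responses lie at the upper left, where STC1, FAT2 and NMNAT2 stand out, and at the lower right with GDF15, PER3 and CRY1, while UHRF1 lies near the dashed line.

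Most of the difference was not reversal. Within TE10, 18.8% of genes rose and 20.0% fell with shRNA, and within Kyse410, 22.6% rose and 26.7% fell. A total of 3840 genes were called in both lines, of which 2568 moved the same way and 1272 moved opposite ways with a called difference, or 7.92% of all genes tested. Of those 1272 genes, 583 rose in Kyse410 and fell in TE10 (3.63%), and 689 fell in Kyse410 and rose in TE10 (4.29%). Their changes were mostly small, since the smaller of a gene's 2 changes had a median of 0.27 on the log2 scale. Only 137 changed at least 1.5-fold each way and 40 at least 2-fold each way. A called difference with a call in Kyse410 alone was seen at 1114 genes that rose and 1278 that fell there, and with a call in TE10 alone at 719 that rose and 727 that fell. For these the change in the other line missed the threshold, which does not show that it was nil.

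Of the reversals upward in Kyse410 with at least a 2-fold change each way, FAT2, NMNAT2 and STC1 had the largest differences among the named genes. STC1, the secreted hormone stanniocalcin-1, stood at 281, 283 and 263 CPM in TE10 scramble and 77.5, 78.7 and 78 CPM in TE10 shRNA. In Kyse410 it stood at 247, 253 and 256 CPM with scramble and 638, 662 and 651 CPM with shRNA. The lines thus stood at close levels with scramble and far apart with shRNA, and the difference in response was 3.19 ± 0.06 (adjusted p = 2.3e-41).

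Other genes, most of them of adhesion and the matrix, also fell in TE10 and rose in Kyse410, at lower levels. Their scramble levels were not as close between the lines as those of STC1. FAT2, an atypical cadherin, fell from 11.6 ± 1.04 to 3.54 ± 0.54 CPM in TE10 and rose from 2.28 ± 0.17 to 8.21 ± 1.22 CPM in Kyse410, a difference of 3.57 ± 0.28 (adjusted p = 1.4e-15). LTBP2, a matrix protein of the latent TGF-beta binding family, fell from 14.1 to 5.37 CPM in TE10 and rose from 3.91 to 10.9 CPM in Kyse410. MMP1, the interstitial collagenase, fell from 82.0 to 35.5 CPM in TE10 and rose from 8.25 to 21.9 CPM in Kyse410. The lines lay closer in MMP1 with shRNA than with scramble. ALDOC, the aldolase C of glycolysis, fell from 25.3 to 12.2 CPM in TE10 and rose from 9.38 to 24.3 CPM in Kyse410, which exchanged the order of the lines. COL13A1, a transmembrane collagen, fell from 12.1 to 5.45 CPM and rose from 16.8 to 35.2 CPM.

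Outside the matrix, NMNAT2, an enzyme of NAD synthesis, stood at 11.8, 13 and 14.1 CPM in TE10 scramble against 6.6, 6.5 and 6.0 CPM with shRNA, and at 18.7, 18.8 and 22.1 CPM in Kyse410 scramble against 91.3, 95.8 and 88.5 CPM with shRNA. Its groups did not overlap in either line, and the difference was 3.24 ± 0.16. ARNT2, a bHLH-PAS transcription factor, fell from 27.9 to 8.50 CPM in TE10 and rose from 13.2 to 28.1 CPM in Kyse410. CALB2, the calcium-binding protein calretinin, fell from 7.42 to 2.90 CPM and rose from 28.8 to 57.6 CPM. ALPI, an alkaline phosphatase, fell by 1.25 in TE10 and rose by 1.12 in Kyse410 on the log2 scale, but its near-identical relatives ALPP and ALPG rose in both lines (ALPP by 2.05 and 2.63), so reads of ALPI may be shared with theirs and its value is uncertain.

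In the other direction GDF15, a stress cytokine, had a larger difference than PER3 (-2.21), although it fell less than 2-fold in Kyse410. GDF15, a secreted member of the TGF-beta superfamily, stood at 24.0, 21.2 and 19.8 CPM in TE10 scramble and 75.1, 73.1 and 77.1 CPM with shRNA, and in Kyse410 at 1585, 1488 and 1565 CPM with scramble and 962, 948 and 987 CPM with shRNA. The difference was -2.48 ± 0.08 (adjusted p = 2.5e-31). The scramble levels were far apart here, and the change drew the lines toward each other without bringing them together.

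Several clock genes were among the reversals downward in Kyse410. PER3, a repressor of the circadian loop, rose from 6.87 ± 0.75 to 13.9 ± 0.36 CPM in TE10 and fell from 110 ± 11.2 to 47.7 ± 1.02 CPM in Kyse410. CRY1, its partner repressor, rose from 20.0 to 43.0 CPM and fell from 58.3 to 32.8 CPM. BHLHE41, a further repressor of the loop, rose from 9.92 to 22.6 CPM and fell from 55.9 to 33.1 CPM. Over the 17 clock and PAR bZIP genes tested, 8 had a lower and 3 a higher response in Kyse410, 12 fell there and 1 rose, while in TE10 5 rose and 5 fell. Of the 17, 5 fell in Kyse410 and rose in TE10, beside 4.29% of all genes, 7 of 21 heat shock chaperones and 20 of 48 ribosome biogenesis and MYC-linked genes. The median difference was -0.37 against -0.0076 over all genes, and it ran from -0.20 without TE10 shRNA replicate 3 to -0.56 without TE10 shRNA replicate 1. Not all members took part: NR1D2 fell by 0.71 in each line with a difference of 0.00, and NR1D1 and BHLHE40 fell more in TE10, where the NR1D1 call was lost without TE10 shRNA replicate 3 (adjusted p = 0.069). HLF, a PAR bZIP factor, fell from 32.5 to 5.10 CPM in Kyse410, and its difference of -4.44 ± 0.80 rests on TE10 levels of 0.11 and 0.43 CPM, below 1 CPM.

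Other genes of this class were OSGIN1, an oxidative stress-induced growth inhibitor, which rose from 11.5 to 23.5 CPM in TE10 and fell from 11.9 to 6.01 CPM in Kyse410, and HSPB8, a small heat shock protein, which rose from 79.4 to 136 CPM and fell from 80.0 to 48.6 CPM. For both, the scramble levels of the lines were nearly equal. CGN, the tight junction protein cingulin, rose from 2.66 to 4.73 CPM and fell from 9.85 to 4.34 CPM. MITF, PLD6 and ZNF79 completed the 10 named in this direction, with differences of -1.69, -1.63 and -1.72.

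**Figure D2:**
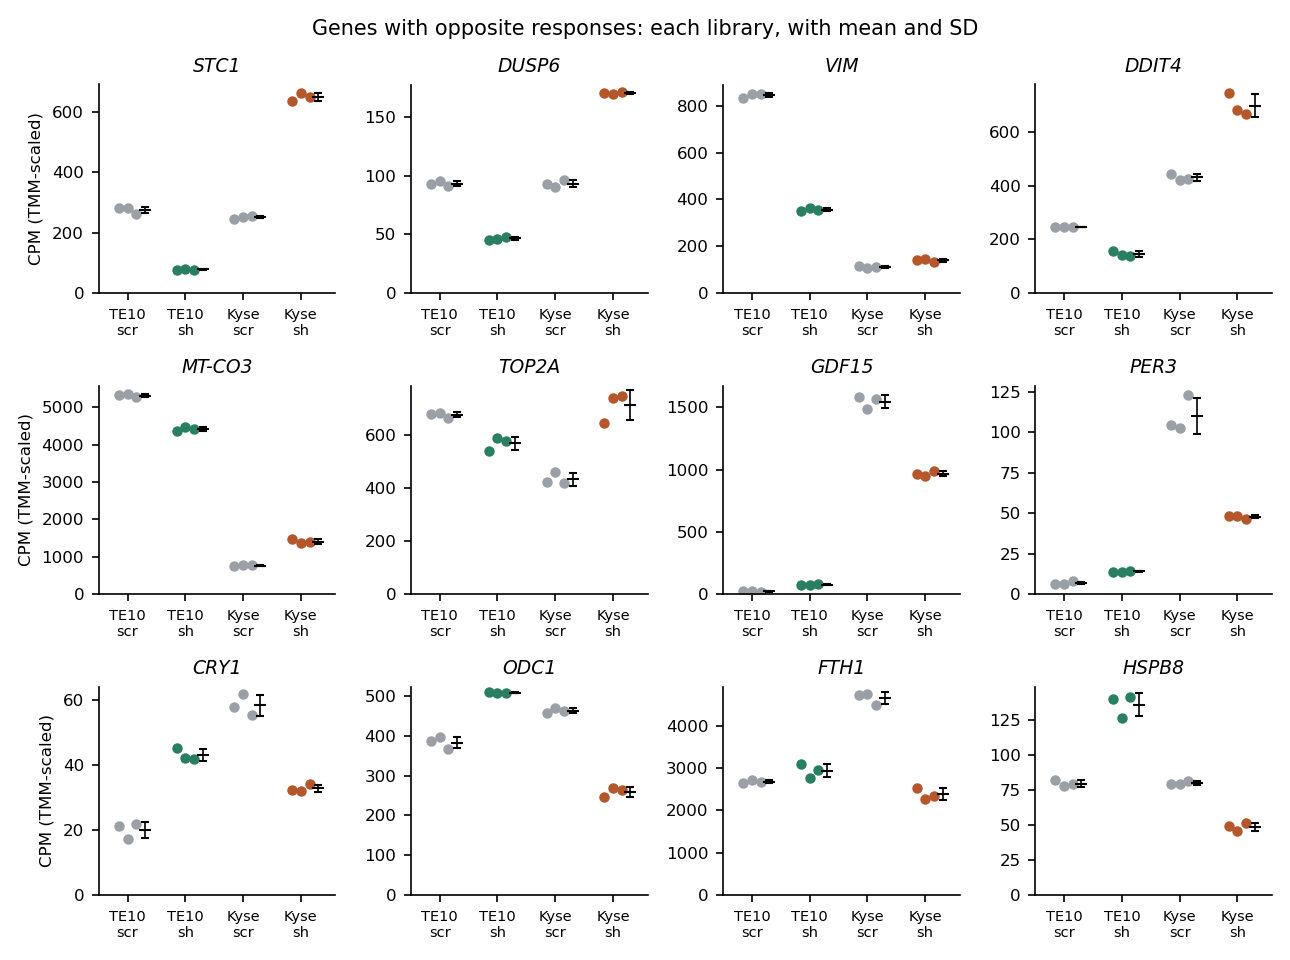
CPM in each library (points) with mean and SD (bar at the right of each group, n = 3) for 12 genes called in opposite directions, for TE10 scramble, TE10 shRNA, Kyse410 scramble and Kyse410 shRNA. Read row by row, the first 6 genes fell in TE10 and rose in Kyse410 and the last 6 did the reverse, and for STC1, DUSP6 and HSPB8 the 2 scramble groups lie at similar levels.

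The list of ribosome biogenesis and MYC-linked genes had the largest share of members with a difference in 1 direction among the lists with at least 10 members tested. It joins genes that build and process ribosomal RNA with genes linked to MYC, which binds the E-box CACGTG. Many members are known targets of MYC, and not all of them make ribosomes. It is called the ribosome biogenesis list below. Of 48 members tested, 45 had a lower response in Kyse410 and 1 a higher one, beside 19.9% and 19.0% of all genes. In Kyse410 42 fell and 0 rose, and in TE10 23 rose and 2 fell, so that 20 were called in opposite directions. The list's median log2 level relative to scramble was 0.11, 0.15 and 0.14 in the 3 TE10 shRNA libraries and -0.47, -0.42 and -0.46 in the 3 Kyse410 shRNA libraries. The median difference was -0.60.

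Among its members, ODC1, the rate-limiting enzyme of polyamine synthesis, stood at 386, 396 and 368 CPM in TE10 scramble and 511, 507 and 508 CPM with shRNA, and in Kyse410 at 456, 469 and 462 CPM with scramble and 246, 269 and 263 CPM with shRNA. RRP12, a factor of ribosomal subunit export, was near flat in TE10 (134 to 143 CPM) and fell from 83.4 to 34.9 CPM in Kyse410, a difference of -1.35 ± 0.08. DDX21, a nucleolar helicase, and NOLC1 had differences of -0.73 and -0.47. NPM1, nucleophosmin, was the member with a higher response in Kyse410, at 0.22 ± 0.05. MYC itself fell by 0.50 in Kyse410, from 1475 to 1043 CPM, and by 0.09 in TE10, from 594 to 558 CPM, with a called difference of -0.41 ± 0.05 (adjusted p = 1.0e-09).

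The E-box was present in the promoter windows of 21 of the 42 genes of the ribosome biogenesis list that had one (50.0%). The share was 12.2% of 10868 tested genes with a window. The list was chosen in part for links to MYC, which binds the E-box, so its share partly follows from that choice. A window runs from 250 bases before to 50 after an annotated start in RefSeq (GRCh38.p14), a gene can have several, and it was counted where any of them held CACGTG, which reads the same on both strands. The share was 19.1% among the 535 genes with a window that fell in Kyse410 and rose in TE10, and 10.9% among the 421 that did the reverse. CACGTG itself holds a CG, and these windows differed in CG content. The median was 28 CG per window in the former, 22 in the latter and 25 over all tested genes with a symbol and a window. Whether CG content accounts for the shares was not tested. The E-box share was also 50.0% for the 12 HOX genes with a window, a list in which 3 of 25 members had a higher and 2 a lower response in Kyse410. A match says only that these letters are in the window. The 4 windows below belong to genes that fell in Kyse410 and rose in TE10, chosen after their values were seen. Of these, 3 are of the ribosome biogenesis list and 1 of the clock list, with the E-box in capitals.
ODC1: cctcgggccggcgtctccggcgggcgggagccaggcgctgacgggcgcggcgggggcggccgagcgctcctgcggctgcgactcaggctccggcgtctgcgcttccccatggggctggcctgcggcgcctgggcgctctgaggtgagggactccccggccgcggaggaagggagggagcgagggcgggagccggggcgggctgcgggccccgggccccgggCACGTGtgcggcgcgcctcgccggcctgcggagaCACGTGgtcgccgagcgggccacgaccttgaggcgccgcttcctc
PES1: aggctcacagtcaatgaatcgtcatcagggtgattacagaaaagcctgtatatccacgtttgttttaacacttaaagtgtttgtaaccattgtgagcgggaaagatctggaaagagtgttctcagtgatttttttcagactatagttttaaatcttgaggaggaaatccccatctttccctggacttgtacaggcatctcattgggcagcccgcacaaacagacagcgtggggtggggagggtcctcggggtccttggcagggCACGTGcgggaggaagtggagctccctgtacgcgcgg
BYSL: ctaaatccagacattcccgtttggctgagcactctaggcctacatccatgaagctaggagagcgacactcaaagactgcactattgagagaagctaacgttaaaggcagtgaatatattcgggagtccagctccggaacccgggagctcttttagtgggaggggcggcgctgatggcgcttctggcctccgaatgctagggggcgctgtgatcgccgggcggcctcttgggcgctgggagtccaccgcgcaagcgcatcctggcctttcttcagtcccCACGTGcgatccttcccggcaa
BHLHE41: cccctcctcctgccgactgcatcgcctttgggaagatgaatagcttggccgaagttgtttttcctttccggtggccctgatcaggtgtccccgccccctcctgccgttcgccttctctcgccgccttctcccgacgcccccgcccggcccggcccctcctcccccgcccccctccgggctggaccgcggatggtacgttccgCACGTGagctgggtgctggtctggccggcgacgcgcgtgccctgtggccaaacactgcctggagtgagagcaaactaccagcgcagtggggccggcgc
Positions count from the annotated start of the window shown. Where several windows of a gene held the E-box, the one lowest in genome coordinates is shown. The ODC1 window (chr2:10447963-10448262, minus strand) holds 2 E-boxes, 29 bases before the start and at base 6 of the transcript. PES1 (chr22:30591861-30592160, minus strand) and BYSL (chr6:41921249-41921548, plus strand) each hold 1 within the first bases transcribed, at base 14 and base 29. BHLHE41 (chr12:26124988-26125287, minus strand) holds 1, starting 48 bases before the start. PES1, a subunit of the PeBoW complex of 60S ribosome assembly, rose from 179 to 212 CPM in TE10 and fell from 84.0 to 50.6 CPM in Kyse410. BYSL, bystin, of 40S assembly, rose from 55.0 to 70.6 CPM and fell from 50.3 to 33.8 CPM.

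The other parts of the translation apparatus leaned the same way. Of 17 snoRNA host genes tested, 11 had a lower and 0 a higher response in Kyse410, 13 fell there, and the median difference was -0.60. ZFAS1 fell by 0.79 in Kyse410 and changed by 0.01 in TE10, and SNHG17 fell by 0.71 in Kyse410 and rose by 0.36 in TE10. Of 77 cytosolic ribosomal protein genes, 45 had a lower and 11 a higher response, 19 fell in Kyse410 and rose in TE10, and the median difference was -0.24. RPS19, for example, rose from 252 to 343 CPM in TE10 and fell from 272 to 220 CPM in Kyse410. These genes have many processed pseudogenes, so reads may be split among copies. Of 30 translation factors and tRNA synthetases, 15 had a lower and 6 a higher response, and EIF3B rose by 0.50 and fell by 0.23. EEF1A1, the abundant elongation factor, went the other way, with a difference of 0.42 ± 0.04.

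**Figure D3:**
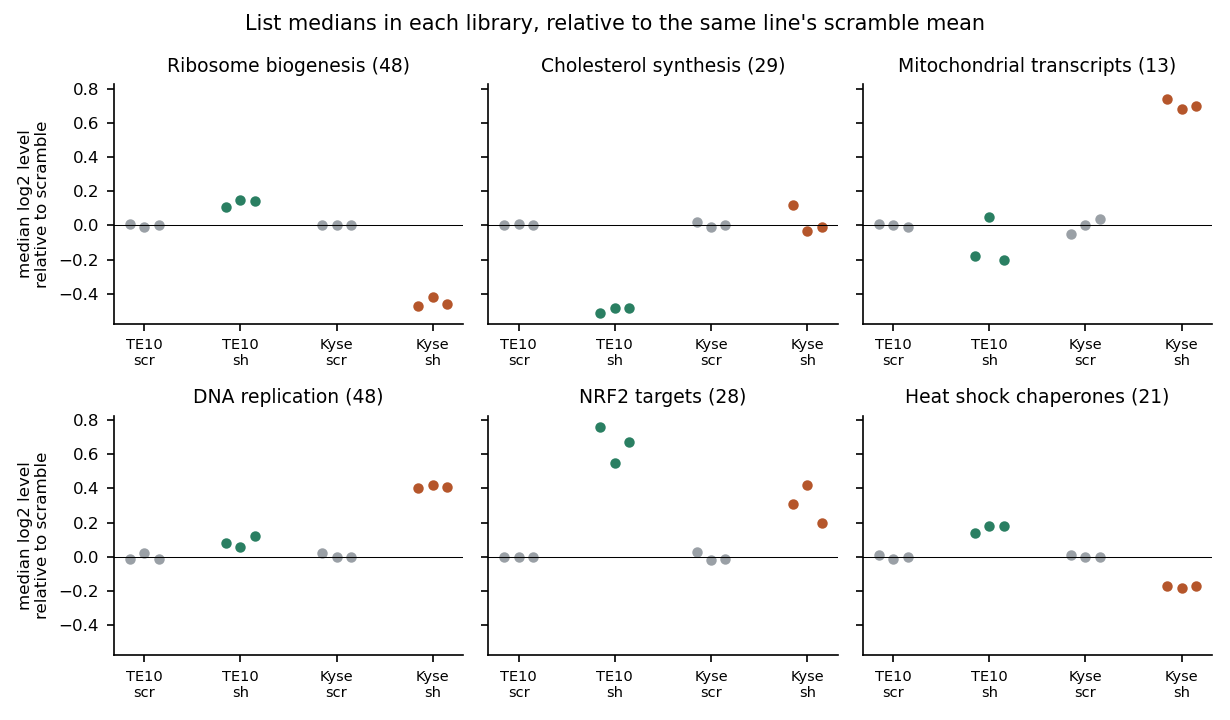
Median over list members of the log2 level (CPM + 0.5) relative to the same line's scramble mean, each point 1 library, for 6 gene lists with the number of members tested in parentheses. The ribosome biogenesis list, which includes MYC-linked genes, and heat shock genes lie above 0 in TE10 shRNA and below 0 in Kyse410 shRNA. Cholesterol genes lie near -0.5 in TE10 shRNA and near 0 in Kyse410 shRNA.

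Mitochondrially encoded transcripts had a higher response in Kyse410, and the nuclear genes of the respiratory chain more often a lower one. All 13 rose in Kyse410, 7 fell and 1 rose in TE10, and 12 of 13 had a higher response in Kyse410, with a median difference of 1.04. MT-CO3, a subunit of cytochrome c oxidase, stood at 5336, 5349 and 5278 CPM in TE10 scramble and 4365, 4468 and 4413 CPM with shRNA, and at 750, 765 and 773 CPM in Kyse410 scramble and 1472, 1356 and 1384 CPM with shRNA. In TE10 the list median was -0.18, 0.05 and -0.20 in the 3 shRNA libraries, so 1 of them did not share the fall. Nuclear copies of mitochondrial DNA can take some of these reads. Of the 50 nuclear subunits, 20 had a lower and 5 a higher response in Kyse410, 23 rose and 1 fell in TE10, and the median difference was -0.25. In Kyse410 9 of them rose and 11 fell, near the shares over all genes. NDUFB9, of complex I, rose by 0.48 in TE10 and fell by 0.38 in Kyse410.

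Lipid synthesis fell in TE10 and not as a group in Kyse410. Of 29 genes of cholesterol synthesis and uptake, 21 fell and 0 rose in TE10, while 9 rose and 6 fell in Kyse410. The response was higher in Kyse410 for 18 and lower for 0, and the list medians in the TE10 shRNA libraries were -0.51, -0.48 and -0.48 against 0.12, -0.03 and -0.01 in Kyse410. FDFT1, squalene synthase, fell from 363 to 187 CPM in TE10 and was 42.9 and 42.7 CPM in Kyse410. Its scramble level was far higher in TE10. SREBF2, the transcription factor of the pathway, fell more in TE10 (-0.66) than in Kyse410 (-0.20).

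Of 18 fatty acid synthesis genes, 13 fell and 1 rose in TE10, while 6 fell and 6 rose in Kyse410. The response was higher in Kyse410 for 13 and lower for 1. ACSS2, which makes acetyl-CoA from acetate, fell by 0.82 in TE10 and rose by 0.27 in Kyse410. SCD, the stearoyl-CoA desaturase, fell in both, by 1.55 and 0.75. Of 35 genes of glycolysis and hypoxia, 17 had a higher and 2 a lower response in Kyse410. DDIT4, an inhibitor of mTORC1 signalling, fell from 246 to 145 CPM in TE10 and rose from 430 to 698 CPM in Kyse410, and SLC2A3, a glucose transporter, fell by 2.15 in TE10 and by 0.48 in Kyse410.

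Genes of serine synthesis and related ATF4 targets rose more often than they fell in both lines. In TE10 9 rose and 2 fell, and in Kyse410 14 rose and 5 fell, with median log2 changes of 0.11 and 0.62. PHGDH, the first enzyme of the serine pathway, fell from 66.8 to 30.7 CPM in TE10 and rose from 236 to 308 CPM in Kyse410. PSAT1, the next enzyme, stood at 62.5, 53.9 and 57.9 CPM in TE10 scramble against 58.1, 60.4 and 62.5 CPM with shRNA, and rose from 55.8 to 151 CPM in Kyse410. ATF4 itself fell by 0.47 in Kyse410 and was 271 CPM in both TE10 groups. Of the list's 21 genes, 10 had a higher and 4 a lower response in Kyse410.

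Targets of NRF2, the regulator of antioxidant genes, rose in both lines and more so in TE10 for several of the most abundant. In TE10 24 of 28 rose and 0 fell, and in Kyse410 17 rose and 5 fell. The response was lower in Kyse410 for 11 and higher for 5. TXNRD1, thioredoxin reductase, rose from 656 ± 5.54 to 1459 ± 35.2 CPM in TE10 and from 447 ± 11 to 474 ± 13.8 CPM in Kyse410, a difference of -1.07 ± 0.05. The 2 ferritin subunits parted: FTL, the light chain, rose by 1.22 in TE10 and 0.13 in Kyse410, and FTH1, the heavy chain, rose by 0.13 in TE10 and fell by 0.96 in Kyse410. AHRR and CYP1A1, both targets of the aryl hydrocarbon receptor, rose in TE10 (5.06 to 14.4 CPM and 3.04 to 11.5 CPM) and differed by -1.52 and -1.93.

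Of 21 heat shock chaperones, 13 rose and 1 fell in TE10, 11 fell and 4 rose in Kyse410, and 7 were called in opposite directions. HSPH1 and CHORDC1, cochaperone genes, rose by 0.13 and 0.33 in TE10 and fell by 0.66 and 0.60 in Kyse410. HSP90AA1 rose in both lines, more in Kyse410. HSPA8 stood at 3427 CPM in TE10 scramble and 63.7 CPM in Kyse410 scramble, so the lines differed widely before any knockdown.

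Genes of DNA replication and of mitosis rose in Kyse410, while those of G1 had no common direction. Of 48 DNA replication genes, 43 rose and 0 fell in Kyse410, 17 rose and 5 fell in TE10, and 29 had a higher and 2 a lower response in Kyse410. CCNE2, cyclin E2, rose from 12.2 to 35.1 CPM in Kyse410 and from 69.0 to 78.9 CPM in TE10. Of 40 genes of G2 and mitosis, 28 rose and 4 fell in Kyse410, 8 rose and 9 fell in TE10, and 25 had a higher and 4 a lower response. TOP2A, topoisomerase II alpha, fell from 674 to 567 CPM in TE10 and rose from 432 to 711 CPM in Kyse410. CDKN1A, the p21 inhibitor of cyclin-dependent kinases, rose from 90.4 to 125 CPM in TE10 and fell from 367 to 292 CPM in Kyse410, a difference of -0.79 ± 0.07. Of 18 G1 cyclins and CDK inhibitors, 6 rose and 9 fell in Kyse410, 7 rose and 6 fell in TE10, and 6 had a higher and 7 a lower response in Kyse410. FOXM1, a driver of mitotic genes, rose by 0.24 and 0.25, with no called difference.

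Most immediate early genes fell in Kyse410, and their responses were mostly lower there than in TE10. Of 11 AP-1 genes, 9 fell and 0 rose in Kyse410, 3 rose and 2 fell in TE10, and 10 had a lower and 1 a higher response, with a median difference of -0.76. JUN stood at 62.5, 65.5 and 65.3 CPM in TE10 scramble and 42.4, 44.5 and 44.4 CPM with shRNA, and at 1315, 1259 and 1322 CPM in Kyse410 scramble and 354, 325 and 347 CPM with shRNA. ATF3 fell from 345 to 119 CPM in Kyse410 and was 17.2 and 18.1 CPM in TE10, where its groups overlapped. EGR1 fell from 2021 to 941 CPM in Kyse410 and from 25.4 to 20.8 CPM in TE10. The scramble levels of JUN, ATF3 and EGR1 were far higher in Kyse410. Of the 24 other early genes (EGR, NR4A, KLF and IER), 19 fell and 2 rose in Kyse410, 13 fell and 2 rose in TE10, and 14 had a lower and 3 a higher response in Kyse410. MCL1, an antiapoptotic BCL2 relative, was among the 3, falling by 0.84 in TE10 and by 0.07 in Kyse410, where its change was not called.

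DUSP6, the phosphatase that ERK induces against itself, ran against the early genes. It stood at 93.0, 95.5 and 91.6 CPM in TE10 scramble and 45.7, 46.3 and 47.9 CPM with shRNA, and at 93.3, 90.5 and 96.5 CPM in Kyse410 scramble and 171, 170 and 172 CPM with shRNA. From equal scramble levels the lines moved apart by 1.87 ± 0.08. Of the 17 ERK feedback genes and targets, 9 had a higher and 4 a lower response in Kyse410. DUSP4 and DUSP5 were among the lower ones, at -0.39 and -0.34.

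Of 24 NF-kB targets and cytokines, 18 fell and 3 rose in Kyse410, 12 fell and 3 rose in TE10, and 10 had a lower and 3 a higher response in Kyse410. IL6 fell from 205 to 18.0 CPM in Kyse410 and from 5.38 to 1.63 CPM in TE10, a difference of -1.80 ± 0.29. IL24, of the IL20 subfamily, stood at 406, 402 and 412 CPM in Kyse410 scramble and 73.4, 71.2 and 66.8 CPM with shRNA, while TE10 held 2.68 and 2.89 CPM. EDN1, endothelin-1, fell from 34.8 to 5.42 CPM in Kyse410 against 2.2 and 2.7 CPM in TE10. Neither IL24 nor EDN1 was called in TE10. The list of the IL6 and IL20 families with STAT3 targets had no common direction: of 18 tested, 8 had a higher and 5 a lower response in Kyse410, and the median difference of 0.073 was -0.11 without Kyse410 scramble replicate 3. OSMR, a receptor subunit, fell from 241 to 138 CPM in TE10 and rose from 233 to 301 CPM in Kyse410, and SOCS3, the feedback inhibitor, fell by 1.38 and rose by 0.13. STAT3 fell by 0.29 and rose by 0.19.

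Interferon response genes fell in both lines, and their differences had no common direction. Of 40 genes, 31 fell and 1 rose in TE10, and 24 fell and 5 rose in Kyse410. The response was higher in Kyse410 for 7 and lower for 12. The median log2 changes were -0.69 and -0.52, and the median difference was 0.02. RSAD2, viperin, fell by 1.33 in TE10 and by 3.25 in Kyse410, and IFITM1 fell by 0.86 in TE10 and rose by 0.40 in Kyse410. IFITM3, the most abundant of those named here, fell by 0.57 and 0.51, with no called difference.

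Mesenchymal genes fell further in TE10. Of 19 tested, 15 fell and 1 rose in TE10, 10 fell and 5 rose in Kyse410, and 9 had a higher and 2 a lower response in Kyse410, with a median difference of 0.60. VIM, vimentin, stood at 834, 850 and 849 CPM in TE10 scramble and 352, 362 and 353 CPM with shRNA, and at 115, 109 and 111 CPM in Kyse410 scramble and 139, 145 and 134 CPM with shRNA. The groups did not overlap in either line, and the difference was 1.57 ± 0.06 (adjusted p = 2.8e-28). SPARC, a matrix glycoprotein, fell in both, from 107 to 7.50 CPM in TE10 and from 75.8 to 22.3 CPM in Kyse410. TNC, tenascin C, fell by 2.37 and 0.84, while FN1, fibronectin, and SNAI2 fell slightly more in Kyse410.

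CDH1, E-cadherin, rose in both lines, from 51.5 to 118 CPM in TE10 and from 113 to 195 CPM in Kyse410, with the larger change in TE10 (difference -0.41 ± 0.07). Of 23 epithelial genes, 18 rose and 2 fell in TE10, and 17 rose and 5 fell in Kyse410. The response was lower in Kyse410 for 10 and higher for 4. ELF3, an epithelial transcription factor, rose by 1.90 in TE10 and 0.40 in Kyse410. KRT5, a basal keratin, fell from 67.4 to 8.05 CPM in TE10, but its level in Kyse410 was 1.14 and 1.37 CPM, so its difference of 3.29 ± 0.36 compares a fall with a gene that was barely on.

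Genes of adhesion to the matrix fell more often than they rose in TE10, and their differences had no common direction. Of 17 laminins and integrins, 13 fell and 3 rose in TE10, 9 fell and 6 rose in Kyse410, and 7 had a higher and 4 a lower response in Kyse410, with a median difference of 0.066. ITGB4, the beta subunit of the hemidesmosome integrin, fell from 1055 to 537 CPM in TE10, whereas in Kyse410 it was 1839 and 1896 CPM with overlapping groups. ITGA2, a collagen receptor subunit, fell from 227 to 142 CPM in TE10 and rose from 230 to 322 CPM in Kyse410. LAMB3, a laminin chain, rose by 0.10 in TE10 and fell by 0.80 in Kyse410. The plasminogen system (4 higher and 3 lower of 9) and the lysosome with cathepsins (7 higher and 8 lower of 28) had no common direction either. PLAT, tissue plasminogen activator, fell from 32.4 to 9.21 CPM in TE10 and rose from 27.1 to 34.7 CPM in Kyse410. Of 17 collagens, 13 fell and 3 rose in TE10, and 13 fell and 4 rose in Kyse410. The response of collagens was higher in Kyse410 for 9 and lower for 2. CTSB, cathepsin B, fell from 965 to 435 CPM in TE10 and was 1072 and 1049 CPM in Kyse410.

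ID1, HBEGF and IGF2 rose in Kyse410 with smaller changes in TE10. ID1, a dominant negative helix-loop-helix protein, stood at 270, 246 and 258 CPM in Kyse410 scramble and 720, 699 and 701 CPM with shRNA, and its TE10 groups overlapped at 376 and 389 CPM. HBEGF, a ligand of EGFR, rose from 88.9 to 262 CPM in Kyse410 and from 18.6 to 24.8 CPM in TE10. IGF2, an imprinted growth factor, rose from 7.17 to 34.1 CPM in Kyse410 and from 10.1 to 12.7 CPM in TE10. H19, the imprinted RNA beside it, rose in both lines, by 1.24 and 0.65. MT2A, a metallothionein, fell from 271 to 128 CPM in TE10 and rose from 188 to 249 CPM in Kyse410, although reads may be shared among metallothionein copies.

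Akt signalling, which the series title names, showed differences in both directions. Of 27 Akt pathway genes, 8 had a higher and 8 a lower response in Kyse410, and the median difference was 0.06. AKT1 rose by 0.17 in TE10 and 0.46 in Kyse410 (difference 0.29 ± 0.07), and AKT2 rose by 0.28 and 0.11 (difference -0.18 ± 0.07, adjusted p = 0.028). The AKT2 call was lost on leaving out any 1 of Kyse410 scramble 1 or 3, Kyse410 shRNA 2, TE10 scramble 1 or 2 and TE10 shRNA 3, at adjusted p of 0.0502 to 0.156. It was also lost with a floor of 10 CPM (adjusted p = 0.083), with no filter (0.125) and without mitochondrial transcripts (0.0555). IRS1, the insulin receptor substrate, fell from 53.4 to 26.7 CPM in TE10 and from 96.2 to 27.3 CPM in Kyse410. PDPK1, the kinase that phosphorylates Akt, rose by 0.52 and fell by 0.16.

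Genes that write and read DNA and histone methylation had differences about as often as all genes did (19.0% higher and 19.9% lower). Of 20 DNA methylation genes, 5 had a higher and 4 a lower response in Kyse410 and the median difference was 0.02, and of 22 genes of H3K9 methylation, 5 were higher and 4 lower with a median of -0.04. Those called in opposite directions included TET3, which oxidises methylcytosine, with a rise of 0.45 in TE10 and a fall of 0.42 in Kyse410, and USP7, a deubiquitinase that binds UHRF1, with a rise of 0.46 and a fall of 0.15. Of 48 germline and pluripotency genes listed, 15 were tested. Of the 15, 6 rose and 1 fell in TE10, and 9 rose and 3 fell in Kyse410. ZFP42 rose from 2.07 to 19.0 CPM in TE10 and from 6.60 to 22.7 CPM in Kyse410.

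**Figure D4:**
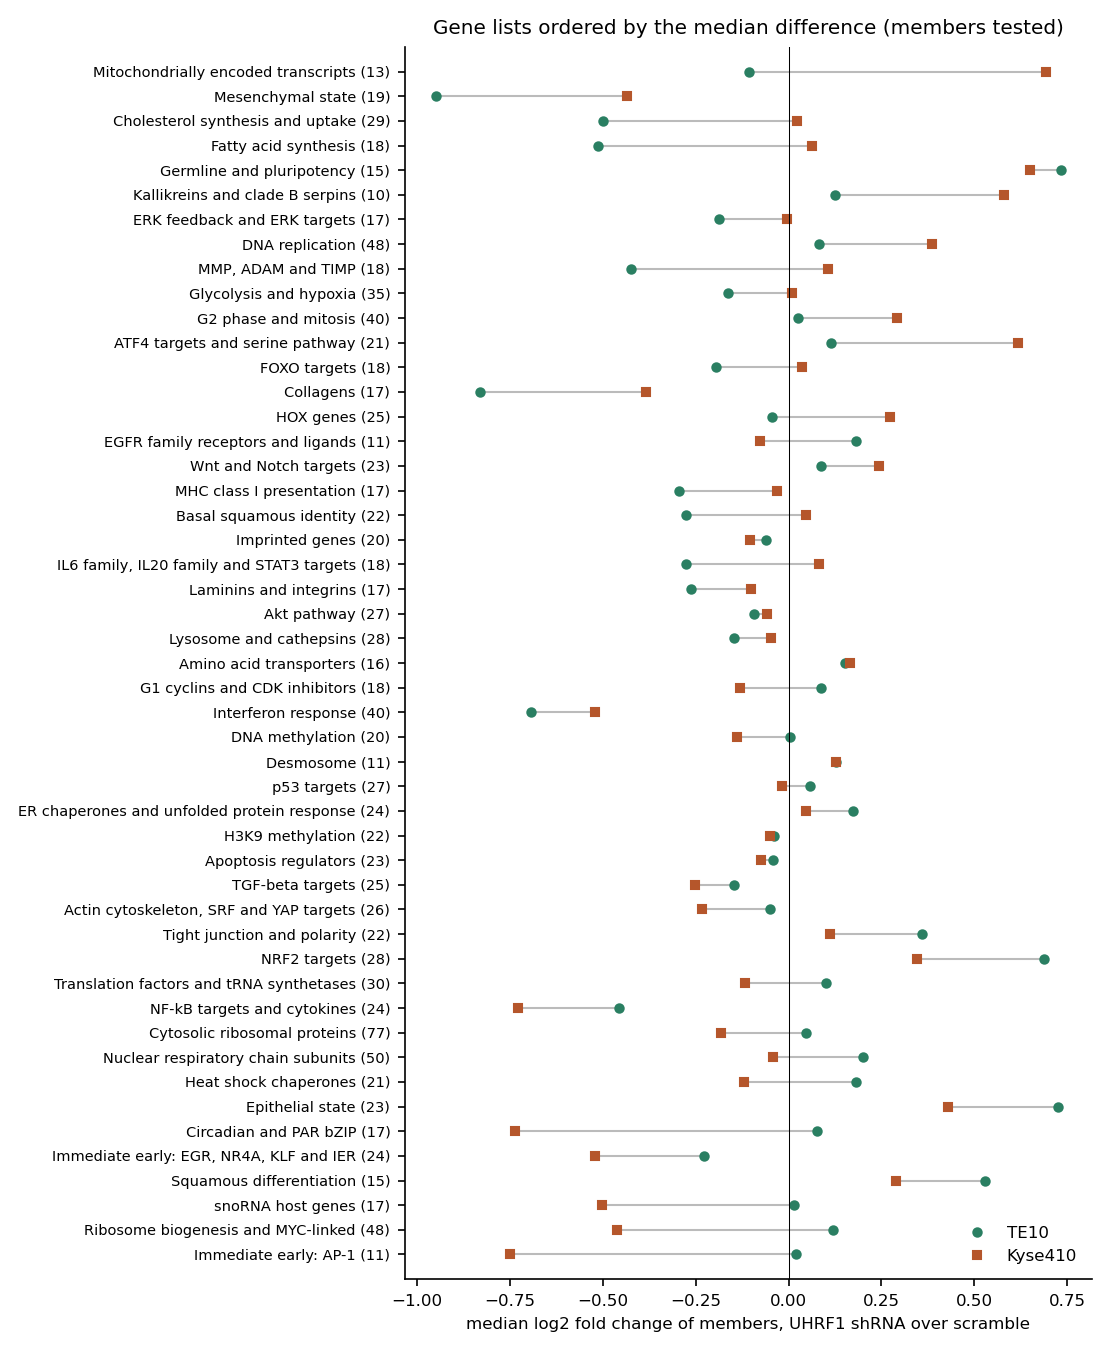
Median log2 fold change with UHRF1 shRNA over scramble in TE10 (circles) and Kyse410 (squares) for each list with at least 10 members tested, ordered by the median difference, with the number tested in parentheses. The medians lie on opposite sides of 0 for several lists, among them ribosome biogenesis and MYC-linked genes, mitochondrially encoded transcripts and heat shock chaperones. They lie close together for interferon, desmosome and DNA methylation genes.

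The response was higher in Kyse410 for 6 and lower for 2 of 17 MHC class I genes, 8 and 4 of 23 Wnt and Notch targets, 8 and 3 of 18 MMP, ADAM and TIMP genes, 9 and 5 of 22 basal squamous genes, and 6 and 2 of 10 kallikreins and clade B serpins. It was lower more often for tight junction and polarity genes (7 of 22, against 1 higher), actin, SRF and YAP targets (13 of 26, against 7), TGF-beta targets (10 of 25, against 7), ER chaperones (9 of 24, against 3) and apoptosis regulators (6 of 23, against 1). It was lower more often, too, for squamous differentiation (6 of 15, against 3), p53 targets (8 of 27, against 5) and heat shock chaperones (14 of 21, against 4). The counts higher and lower were 4 and 3 of 11 EGFR family genes, 3 and 3 of 11 desmosome genes, 5 and 4 of 16 amino acid transporters, 6 and 4 of 18 FOXO targets, 8 and 4 of 20 imprinted genes, 3 and 2 of 15 germline and pluripotency genes and 2 and 0 of 2 metallothioneins. These counts are read beside 19.0% higher and 19.9% lower over all genes.

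The lines lay no closer to each other with shRNA than with scramble. Among 11994 genes averaging 5 CPM or more, 2789 were at least 2-fold apart between the scramble groups and 2983 between the shRNA groups, and the median gap was 0.547 and 0.565 on the log2 scale of CPM + 0.5.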

How the data were processed

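Polyadenylated RNA was measured in 12 libraries, 3 in each of 4 groups. The authors deposited raw counts, whole numbers of reads per gene, 1 file per library. Per the submitters' processing notes, the build was GRCh37.p13 and the tools were HISAT2 2.1.0, bcl2fastq 2.19, DESeq2 and HTSeq 0.9.1. No source used here gives the annotation release or the strandedness of counting, so reads of overlapping antisense genes cannot be told apart. Reads given to no gene, 58.89% to 61.48% of a library, were left out. Of 57820 identifiers, 51443 had a symbol (99.03% of gene reads), and UHRF1 was named from its identifier.

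Counts were filtered by filterByExpr, scaled by TMM and fitted in 1 model with a mean per group (8 residual degrees of freedom) with edgeR 4.0.16, limma 3.58.1 and DESeq2 1.42.0 in R 4.3.3, the last 2 as alternatives. Adjustment was by Benjamini-Hochberg over 16060 genes, and SE values come from the same fit. Chi-square per degree of freedom between libraries of a group was 1.572 to 2.924, so no libraries were merged. The pipeline was tested on simulated data.

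The gene lists (53, with 1336 different genes, 1157 tested) and the named genes were chosen with earlier results of these data known. Some named genes had to have a called difference and average at least 5 CPM. These were the 10 largest differences each way, 10 opposite responders each way and the 4 largest of each same-direction class. The 5 largest called in 1 line and near flat in the other met the same conditions. Neither the floor nor a call was required of the list members, 3 of each list by adjusted p and 3 by level, or of 10 fixed genes. PES1 and BYSL were added after their values were seen, and some genes that the rule names are not reported here. Lists are described by counts and medians, without a set test.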

Additional observations from a re-analysis of the deposited data

Results flagged for a closer look

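The 6240 genes whose response differed between the lines were taken for a closer look because the difference itself passed the test. Among named genes, those called in opposite directions with at least a 2-fold change in each line were FAT2 (difference 3.57 on the log2 scale), NMNAT2 (3.24), STC1 (3.19), LTBP2 (2.87), ARNT2 (2.79), MMP1 (2.64), ALDOC (2.42), ALPI (2.37), COL13A1 (2.23) and PER3 (-2.21). For each of these the 3 shRNA libraries lay wholly on one side of the 3 scramble libraries in TE10 and wholly on the other side in Kyse410. The groups did not overlap in both lines for 1141 of all 1272 opposite responders, so this does not set these genes apart. PER3 was the only 1 of the 10 that fell in Kyse410. ALPI shares near-identical sequence with ALPP and ALPG.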

How the results depend on the processing

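Leaving out each of the 12 libraries in turn gave 5758 to 6134 genes with a called difference, 1066 to 1293 with opposite responses, 838 to 895 at least 2-fold higher and 333 to 378 at least 2-fold lower. Without mitochondrial transcripts, 96.5% of the called genes were called again, with DESeq2 87.9% and with limma voom 96.4%. An adjusted p under 0.01 left 4608 called differences and 755 opposite responses. A floor of 10 CPM, with fewer genes tested and the scaling recomputed, gave 368 higher and 119 lower differences of at least 2-fold. The share of higher calls was 47.0% to 52.9% over all settings. After each group's mean was taken off, the same-numbered shRNA and scramble libraries of a line correlated at -0.037 to 0.147. Those with different numbers correlated at -0.188 to 0.118, so the libraries were not treated as pairs. With a replicate block within each line 6368 genes were called, and with a replicate block shared by the lines 6333.

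Of 1038 list medians recomputed under the alternatives, 82 moved by more than the spread between libraries (1 SD). A floor of 10 CPM drops members, and the scaling is then recomputed. Whether lost members or scaling moved a median was not tested. Medians not counted as moved shifted too, such as DNA replication from 0.363 to 0.411, AP-1 from -0.757 to -0.709 and germline and pluripotency from 0.425 to 0.26. With the floor the median difference moved from -0.14 to -0.11 for actin cytoskeleton, SRF and YAP targets, 0.037 to 0.08 for amino acid transporters and 0.49 to 0.62 for cholesterol synthesis and uptake. It moved from -0.24 to -0.18 for cytosolic ribosomal proteins, 0.18 to -0.08 for EGFR family receptors and ligands and 0.26 to 0.31 for G2 phase and mitosis. With that floor it also went from 0.26 to 0.20 for glycolysis and hypoxia, 0.19 to -0.014 for HOX genes, -0.30 to -0.26 for heat shock chaperones, 0.073 to -0.034 for the IL6 and IL20 families, -0.38 to -0.31 for EGR, NR4A, KLF and IER genes and 0.11 to 0.46 for imprinted genes. The floor further took it from 0.066 to 0.11 for laminins and integrins, 0.057 to 0.10 for lysosome and cathepsins, 1.34 to 0.59 for fibroblast, endothelium and muscle markers, 0.60 to 0.74 for mesenchymal state, -0.25 to -0.20 for nuclear respiratory chain subunits and -0.03 to 0.20 for plasminogen system. The last moves with the floor were from -0.60 to -0.55 for ribosome biogenesis and MYC-linked, -0.14 to -0.093 for TGF-beta targets, -0.17 to -0.12 for translation factors and tRNA synthetases, 0.18 to 0.079 for Wnt and Notch targets and -0.60 to -0.55 for snoRNA host genes. Without a filter it moved from -0.24 to -0.22 for cytosolic ribosomal proteins. Leaving out 1 library in turn gave medians of 0.24 to 0.34 for ATF4 targets and serine pathway, -0.19 to -0.10 for actin cytoskeleton, SRF and YAP targets, 0.014 to 0.076 for amino acid transporters, 0.11 to 0.22 for basal squamous identity, 0.49 to 0.55 for cholesterol synthesis and uptake and -0.56 to -0.20 for circadian and PAR bZIP. The same step gave 0.19 to 0.28 for collagens, -0.25 to -0.20 for cytosolic ribosomal proteins, -0.12 to 0 for ER chaperones and unfolded protein response, 0.33 to 0.41 for ERK feedback and ERK targets, 0.19 to 0.28 for FOXO targets and -0.013 to 0.056 for G1 cyclins and CDK inhibitors. Over the left-out libraries the medians ran from 0.25 to 0.31 for G2 phase and mitosis, 0.23 to 0.31 for glycolysis and hypoxia, -0.36 to -0.28 for heat shock chaperones, -0.11 to 0.12 for the IL6 and IL20 families, 0.086 to 0.32 for imprinted genes and 0.37 to 0.65 for kallikreins and clade B serpins. They ran from 0.033 to 0.10 for lysosome and cathepsins, 0.26 to 0.47 for proteases with TIMPs, 1.74 to 2.06 for metallothioneins, -0.38 to -0.18 for NF-kB targets and cytokines, -0.21 to -0.11 for NRF2 targets and -0.30 to -0.20 for nuclear respiratory chain subunits. Further ranges were -0.068 to 0.14 for plasminogen system, -0.45 to -0.092 for squamous differentiation, -0.19 to -0.10 for TGF-beta targets, -0.24 to -0.004 for tight junction and polarity, 0.10 to 0.39 for Wnt and Notch targets and -0.60 to -0.54 for snoRNA host genes. Of 2303 combinations of a named gene and a setting, differences near 0 changed sign for FOXM1 (-0.0071 with DESeq2, -0.007 with its size factors, and -0.0187 to 0.047 without 1 library) and NR1D2 (-0.0069, -0.0071, -0.0002 with the replicate block within line, and -0.0334 to 0.0543 without 1 library), none of which was called. The cause of these moves was not tested. In simulated data on 16060 genes, 50 genes were given each size of difference in response. Of the 50, 40% were called at 1.25-fold, 68% at 1.5-fold, 92% at 2-fold and 100% at 4-fold, so small differences can be missed. Far fewer genes differed there than the 6240 called in the data, and the adjusted p depends on how many differ. These rates therefore need not hold for the data. They are not split by gene level, so they do not describe genes with low counts.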
